A study of Mus musculus with 12 samples.

Results

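The neurotrophins are secreted growth factors of nerves, and the members described here are the Trk receptors Ntrk2 and Ntrk3, the p75 receptor Ngfr, and the ligands Bdnf and Ntf3. The 5 genes were taken by symbol from the 32285 genes of the count matrices. Ntrk3 was chosen by measured values of these libraries, its high level in adipocytes of the brown-type depots and its fall in cold mPRAT, so those values are a description and support nothing. The study sequenced nuclei of adipose depots from male C57BL/6J mice on normal chow, in 12 libraries with 1 library in each group. The depots carry the abbreviations mPRAT and lPRAT (by common usage medial and lateral perirenal adipose tissue), iBAT (interscapular brown) and iWAT (inguinal white). At a room temperature of 22 °C, mPRAT and iBAT were sampled at 1, 2 and 6 months of age, lPRAT at 2 and 6 months, and iWAT only at 6 months. At 6 months, mPRAT, iBAT and iWAT were also sampled after 3 days at 4 °C. For all 7 libraries of 6 months, at room temperature and in cold, the titles give 6 months where another label gives 16 weeks, so the age of every 6-month library is uncertain by that much. The labels name no genotype or transgene and do not say how many animals went into a library.

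Each mature neurotrophin binds a preferred Trk receptor kinase, Bdnf binding the product of Ntrk2 (TrkB) and Ntf3 that of Ntrk3 (TrkC), and both also bind p75, the product of Ngfr. Unprocessed neurotrophins prefer p75 together with sortilin. The ligands are known as target-derived factors that keep sensory and sympathetic nerve fibres alive, and brown fat is densely supplied with sympathetic fibres.

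In the GENCODE annotation of GRCm38, Ntrk3 (ENSMUSG00000059146) covers chr7:78175959-78738012 on the minus strand, 562.1 kb, and Ntrk2 (ENSMUSG00000055254) covers chr13:58806569-59133970 on the plus strand, 327.4 kb. Ngfr (ENSMUSG00000000120) lies at chr11:95568818-95587735 on the minus strand. The ligands Ntf3 (ENSMUSG00000049107) and Bdnf (ENSMUSG00000048482) lie at chr6:126101412-126166910 on the minus strand and at chr2:109674700-109727007 on the plus strand. Antisense genes overlapping the receptors held few counts in adipocyte-like nuclei, 650 for Gm9885 against 480012 for Ntrk3, and 276 and 389 for Gm47423 and 4930415C11Rik against 89741 for Ntrk2. RefSeq promoter windows on GRCm38.p6, taken as the 250 bases before a start, were found for 4 of the 5 members, 11 windows in all, 9 of them free of annotated exons. The windows of Ntrk2 (chr13:58806319-58806568, plus strand) and Ntf3 (chr6:126164961-126165210, minus strand) are shown because the levels of these 2 members were lower in adipocyte-like nuclei of cold iWAT. The Bdnf window (chr2:109692186-109692435, plus strand) is shown as the one member window with the core of a cAMP response element, though not the full element. Every window shown runs 5′ to 3′ on its gene's strand, and capitals mark the match.
Ntrk2: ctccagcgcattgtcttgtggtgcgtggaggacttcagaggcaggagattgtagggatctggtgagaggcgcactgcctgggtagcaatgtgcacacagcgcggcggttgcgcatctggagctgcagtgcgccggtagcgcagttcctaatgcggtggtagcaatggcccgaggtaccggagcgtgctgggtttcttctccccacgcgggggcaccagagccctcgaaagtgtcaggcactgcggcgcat
Ntf3: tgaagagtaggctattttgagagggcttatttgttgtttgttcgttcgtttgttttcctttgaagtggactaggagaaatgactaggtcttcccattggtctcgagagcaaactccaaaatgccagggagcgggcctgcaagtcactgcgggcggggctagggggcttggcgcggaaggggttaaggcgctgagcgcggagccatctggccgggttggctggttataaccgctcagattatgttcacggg
Bdnf: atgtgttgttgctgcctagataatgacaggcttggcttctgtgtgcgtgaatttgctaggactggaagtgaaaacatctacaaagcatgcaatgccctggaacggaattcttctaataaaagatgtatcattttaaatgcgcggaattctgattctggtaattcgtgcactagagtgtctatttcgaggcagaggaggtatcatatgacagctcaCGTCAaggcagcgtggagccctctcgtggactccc
Both strands were searched for the full cAMP response element TGACGTCA, its core TGACG, which is contained in the full element, and the EBF motif, read as TCCC and GGGA with 2 free bases between them. Of 32851 windows of this length, 1.55% held the full element, 17.8% the core and 0.779% the EBF motif. No member window held the full element or the EBF motif, and the Bdnf window above held the core on its opposite strand.

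Of 119035 barcodes, 96629 nuclei were kept, with the fewest, 3159, in the lPRAT library of 2 months and the most, 17490, in the iBAT library of 6 months at room temperature. Median UMIs, the molecules counted per nucleus, ran from 874 to 6125 over libraries. The cold mPRAT library stood apart, with 66.0% of the barcodes that passed the UMI and gene limits above the limit of 10% mitochondrial UMIs, against 22.1% or less elsewhere. Its main values are followed by those without that limit in either mPRAT library of 6 months, whereas the quotients to adipocyte markers, the counts by single pathway list and the correlations were made only with the limit. Pairs of libraries shared 3 to 76 barcodes, at most 0.734% of the smaller library. Nuclei were clustered without the members, and clusters were named from marker genes, so "-like" names rest on markers alone. The 6 adipocyte-like clusters each carried 7 to 9 of 9 adipocyte markers, and their nuclei made up 32.7% to 88.1% of a library. A level is the member's UMIs per 1000000 UMIs (CPM) of a class in 1 library, and intervals are exact 95% intervals that cover counting error only. With 1 library in each group there are no replicates, so no difference between groups was tested, and any difference may also hold differences between animals, dissections and preparations.

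Ntrk3 was high in adipocyte-like nuclei of both brown-type depots and low in both white depots. In mPRAT at room temperature its level was 2119 CPM at 1 month, 1581 at 2 months and 2276 at 6 months. In iBAT it was 3663, 1881 and 6063 CPM at the same ages. In lPRAT it was 39.2 CPM (interval 31.9 to 47.7) at 2 months and 16.9 (14.9 to 19.1) at 6 months, and in iWAT 122 (119 to 126) at 6 months. The lowest room-temperature value of mPRAT or iBAT thus exceeded the highest of lPRAT or iWAT, which describes the values by which the gene was chosen. How many of all genes separate these libraries likewise was not counted. As log2 ratios, mPRAT exceeded lPRAT by 5.33 at 2 months and 7.07 at 6 months, and at 6 months mPRAT exceeded iWAT by 4.22 and iBAT exceeded iWAT by 5.63. At 6 months the order was iBAT, mPRAT, iWAT, lPRAT, and no neighbouring intervals overlapped.

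**Figure D1:**
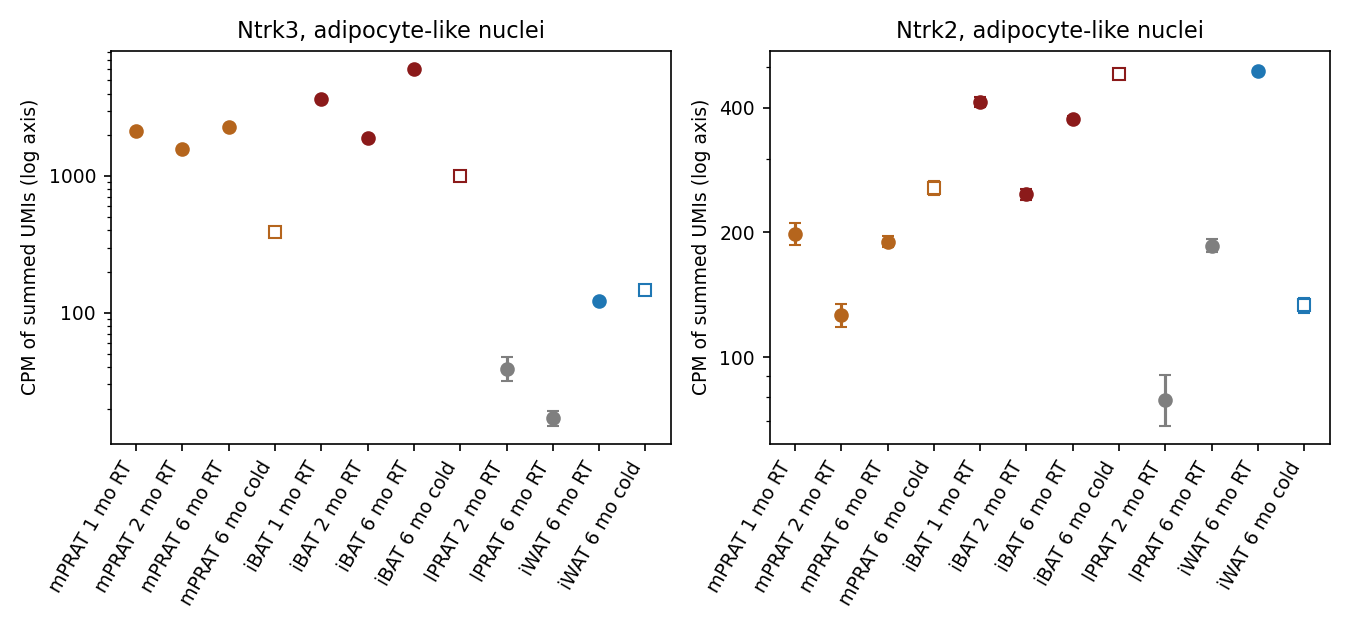
Levels of Ntrk3 and Ntrk2 in adipocyte-like nuclei of each of the 12 libraries, in CPM on a log axis, with exact 95% counting intervals. Ntrk3 lies at 1581 CPM or more in every room-temperature mPRAT and iBAT library (filled circles) and at 146 or less in every lPRAT and iWAT library, open squares are cold, and Ntrk2 is highest in room-temperature iWAT at 489 CPM.

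Within the brown-type depots Ntrk3 did not follow age in 1 direction. From 1 to 2 months its log2 level fell by 0.42 in mPRAT and fell by 0.96 in iBAT, and from 2 to 6 months it rose by 0.53 and by 1.69. The net change from 1 to 6 months was 0.10 in mPRAT and 0.73 in iBAT. The mix of adipocyte clusters also changed with age. In iBAT, cluster 2, led by Tfrc, Impdh1 and Gm26917, held 76.2% of adipocyte-like nuclei at 1 month, cluster 4 held 58.9% at 2 months and cluster 0, of which Ntrk3 itself was the leading gene, held 85.1% at 6 months, and in mPRAT the share of cluster 2 went from 54.85% at 1 month to 1.86% at 6 months. Within clusters with at least 50 nuclei in both libraries, the log2 ratio of Ntrk3 from 2 to 6 months ran from 1.38 to 1.77 over 5 clusters of iBAT and from 0.13 to 2.14 over 5 of mPRAT. From 1 to 2 months it ran from -0.88 to -0.68 over 4 clusters of iBAT and from -0.76 to 0.14 over 4 of mPRAT, where cluster 0 went the other way (0.14, interval 0.02 to 0.27). In lPRAT the level of all adipocyte-like nuclei fell by 1.21 (interval -1.55 to -0.86) between 2 and 6 months, while cluster 3 went from 90.4% to 8.59% of them and cluster 5 from 8.37% to 91.0%. The 2-month lPRAT library was shallow: its adipocyte-like nuclei had a median of 894 UMIs, against 6538 at 6 months. Of these 2114 nuclei, 1212 had under 1000 UMIs, and 21.4% of the library's barcodes past the UMI and gene limits were over the mitochondrial limit. The part of depth in the differences between the 2 ages of lPRAT was not tested. Within cluster 3 of lPRAT the direction was the other way, from 40.5 to 90.2 CPM (log2 ratio 1.15, interval 0.57 to 1.71), and within cluster 5 it went from 34.9 to 14.4 CPM (-1.28, interval -1.99 to -0.47). The log2 ratio of mPRAT over iBAT was -0.79, -0.25 and -1.41 at 1, 2 and 6 months, and the 2-month value turned to 0.58 once the macrophage-like level of each library was subtracted.

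After 3 days of cold, Ntrk3 fell in both brown-type depots and not in iWAT. In mPRAT the level went from 2276 to 388 CPM, a log2 ratio of -2.55 (-2.60 to -2.51), and without the mitochondrial limit the cold level was 375 CPM and the ratio -2.60. In iBAT it went from 6063 to 1001 CPM, a log2 ratio of -2.60 (-2.61 to -2.59). In iWAT it went from 122 to 146 CPM, a log2 ratio of 0.26 (0.19 to 0.33). Cold mPRAT and cold iBAT stayed above all 4 lPRAT and iWAT values. The mix of adipocyte clusters changed at the same time: cluster 1, led by Gmpr, Acsl5 and Ttc25 with Ucp1 among its leading genes, held 3.57% of mPRAT adipocyte-like nuclei at room temperature and 59.3% in cold (59.0% without the limit), and 1.43% and 97.7% of those of iBAT. Within that cluster Ntrk3 went from 3148 to 604 CPM in mPRAT (log2 ratio -2.38) and from 5441 to 1014 in iBAT (-2.42), so the difference was about as large inside the cluster as over all adipocyte-like nuclei. In cluster 3, led by Cyp2e1, Ces1f and Car3, Ntrk3 went from 1133 to 59.3 CPM in mPRAT (-4.26) and from 2070 to 316 in iBAT (-2.71). In cluster 4, led by Ppara, Rgs2 and Gm26917, it went from 4255 to 509 CPM in mPRAT (-3.06). Without the mitochondrial limit the mPRAT ratios were -2.44 in cluster 1, -4.28 in cluster 3 and -4.11 in cluster 4, where the cold level was then 246 CPM. In iWAT the direction was the other way within clusters: the level went from 250 to 196 CPM in cluster 3 (-0.35, interval -0.46 to -0.24) and from 103 to 79.8 in cluster 5, led by Gm4876, Mageb18 and Nnat (-0.37, interval -0.50 to -0.24). Cluster 3, in which iWAT had more Ntrk3 than in cluster 5, made up 19.6% of iWAT adipocyte-like nuclei at room temperature and 60.8% in cold.

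**Figure D2:**
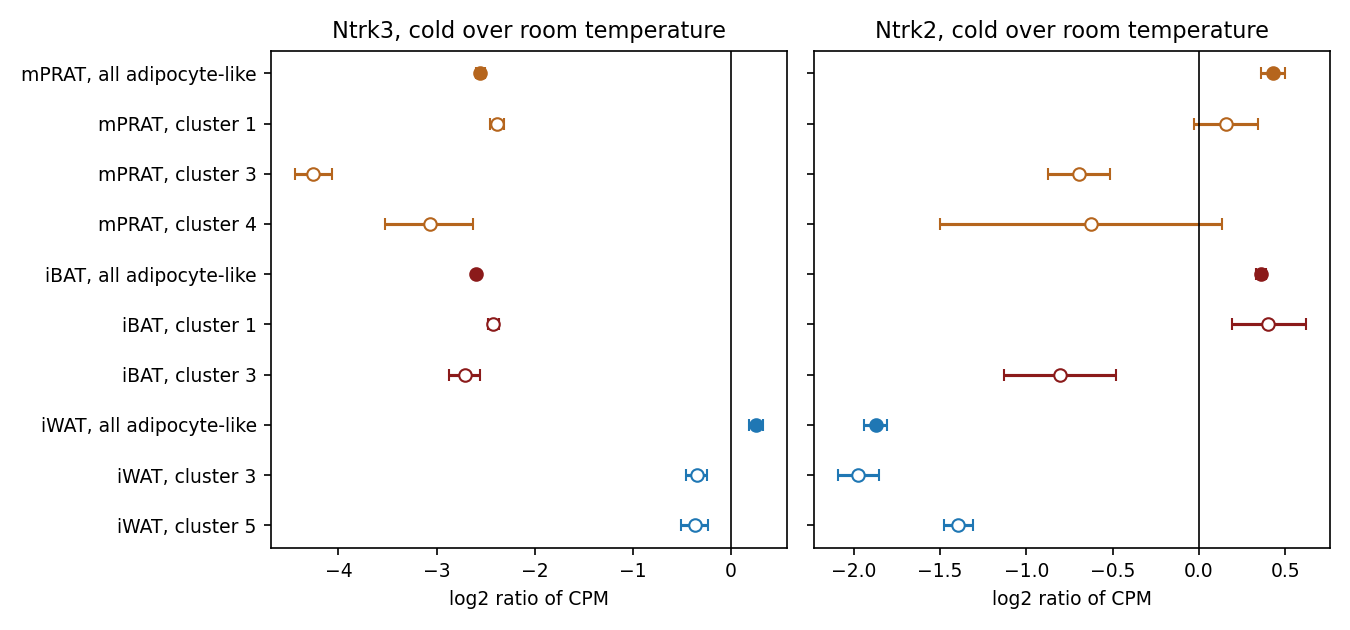
Log2 ratios of CPM, cold over room temperature, of Ntrk3 (left) and Ntrk2 (right) over all adipocyte-like nuclei (filled points) and within clusters (open points) of mPRAT, iBAT and iWAT, with exact 95% counting intervals. Ntrk3 lies between -4.26 and -2.38 in every mPRAT and iBAT row, and Ntrk2 lies at -1.39 or lower in every iWAT row.

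The same Ntrk3 UMIs, by whose levels the gene was chosen, were also counted as the share of adipocyte-like nuclei that held one. With every nucleus thinned to 1000 UMIs, the share in mPRAT was 76.0%, 58.0% and 64.1% at 1, 2 and 6 months and 25.2% in cold, with or without the mitochondrial limit (82.9%, 67.2%, 84.6% and 47.9% unthinned). In iBAT it was 93.5%, 78.1% and 98.1%, and 53.0% in cold (93.9%, 85.9%, 99.2% and 89.8% unthinned). The white depots had 2.99% and 1.42% in lPRAT by age, and 11.2% and 12.2% in room-temperature and cold iWAT (3.50%, 7.72%, 36.3% and 32.9% unthinned). Free RNA can give UMIs to nuclei that do not express a gene, and macrophage-like nuclei were used to read it. Their thinned share was 42.9% (21.8% to 66.0%) of 21 nuclei in iBAT at 2 months and 39.0% (30.1% to 48.4%, 118 nuclei with a median of 1483 UMIs) in iBAT at 6 months, where 98.1% of adipocyte-like nuclei had Ntrk3. At the same age mPRAT had 6.67%, and the cold libraries had 0.93% (mPRAT, 1.09% without the limit) and 9.39% (iBAT), with 2.43% or less in iWAT. In each of these libraries the share in adipocyte-like nuclei was above that of macrophage-like nuclei.

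Adipocyte-like nuclei were also split by whether they held a UMI of Ucp1, the uncoupling protein of thermogenic adipocytes. Nuclei with such a UMI had more Ntrk3 in mPRAT, and in iBAT the differences were small and mixed in direction. Ucp1 UMIs were also found in macrophage-like nuclei, which should lack the gene, and more of these had one in iBAT. After thinning, 30.6% of adipocyte-like and 8.47% of macrophage-like nuclei of iBAT at 6 months had a Ucp1 UMI, and 74.6% and 17.5% did in cold. In mPRAT the same shares were 14.0% and 1.56% at 6 months and 42.3% and 2.33% in cold (42.7% and 3.27% without the mitochondrial limit). Unthinned, they were 47.3% and 8.90% in iBAT at 6 months and 97.9% and 36.5% in cold, and 30.6% and 3.11% in mPRAT at 6 months and 60.9% and 4.39% in cold (60.5% and 5.51% without the limit). The part of free Ucp1 RNA in the difference between the depots was not tested. After thinning, mPRAT adipocyte-like nuclei with a Ucp1 UMI had 2592, 2056 and 4150 CPM of Ntrk3 at 1, 2 and 6 months, and those without had 2220, 1521 and 2342. In cold mPRAT the levels were 607 with Ucp1 and 270 without, a ratio of 2.25 (2.02 without the mitochondrial limit). In iBAT the ratios were 1.07, 0.983 and 0.934 over the ages and 0.937 in cold, and the intervals of the 2 levels were apart in all of these but the one at 2 months. In cold iWAT the ratio was 0.642, with overlapping intervals. The size depended on thinning: without it the ratio was 6.67 in cold mPRAT (6.52 without the limit) and 2.76 in mPRAT at 6 months, and it turned to 1.07 in iBAT at 2 months and to 1.34 in cold iBAT. Ntrk3 was higher with Ucp1 in 5 of the 9 libraries that had at least 20 nuclei of both kinds, and in 7 of 9 without thinning. Ntrk2 was higher with Ucp1 in 7 of 9, with ratios of 1.42, 1.96 and 1.66 in mPRAT by age, 1.89 in cold mPRAT (4.10 without thinning and 1.90 without the limit) and 0.812 in cold iWAT. Ucp1 itself rose in cold, from 199 to 731 CPM in mPRAT (727 without the limit), from 437.5 to 1470 in iBAT and from 0.802 to 30.2 in iWAT. In cold, Ucp1 was thus higher and Ntrk3 lower in mPRAT and iBAT, whereas over all adipocyte-like nuclei of iWAT both were higher.

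Outside adipocytes, Ntrk3 UMIs were weighed against adipocyte marker UMIs in the same class, relative to the same quotient in adipocyte-like nuclei of that library, so that free adipocyte RNA alone gives about 1. A class counts as above or below 1 where its whole interval is. The divisor holds the adipocyte-like Ntrk3 level, by which the gene was chosen and which was low in white and high in brown-type depots. Quotients of different depots are therefore not ranked against each other. Endothelial-like nuclei were below 1 in 8 of 12 libraries and pericyte-like nuclei in 7 of 10, with none above. Macrophage-like nuclei, read above for free RNA, were below 1 in 7 of 12 and above 1 in 2 of 12, iBAT at 2 months (1.94) and iWAT at room temperature (1.33), so their Ntrk3 did not follow adipocyte marker RNA evenly. ASPC-like nuclei, the adipose stem and progenitor cells, were above 1 in 8 of 12 libraries, up to 70.5 in lPRAT at 2 months, and below 1 in all 4 iBAT libraries. Their level ranged from 31.2 CPM in iWAT at room temperature to 725 in iBAT at 6 months. T or NK-like nuclei were above 1 in 6 of 10 libraries. In mPRAT at 6 months, which held most of them, they had 331 CPM (312 to 350) against 111 in B-like nuclei and 66.1 in macrophage-like nuclei, and in room-temperature iWAT they had 193 (167 to 223) against 15.2 in B-like and 33.6 in macrophage-like nuclei. In cold mPRAT the T or NK-like level was 31.5 CPM on 3 counts (26.8 without the limit). Mesothelial-like nuclei of lPRAT were also above 1, at 5.08 at 2 months and 47.6 at 6 months. Schwann-like nuclei, the glia of nerve fibres, had 569 CPM over all libraries together, but their quotient was 0.602 to 0.862 in the 3 libraries with at least 20 of them, with every interval spanning 1.

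**Figure D3:**
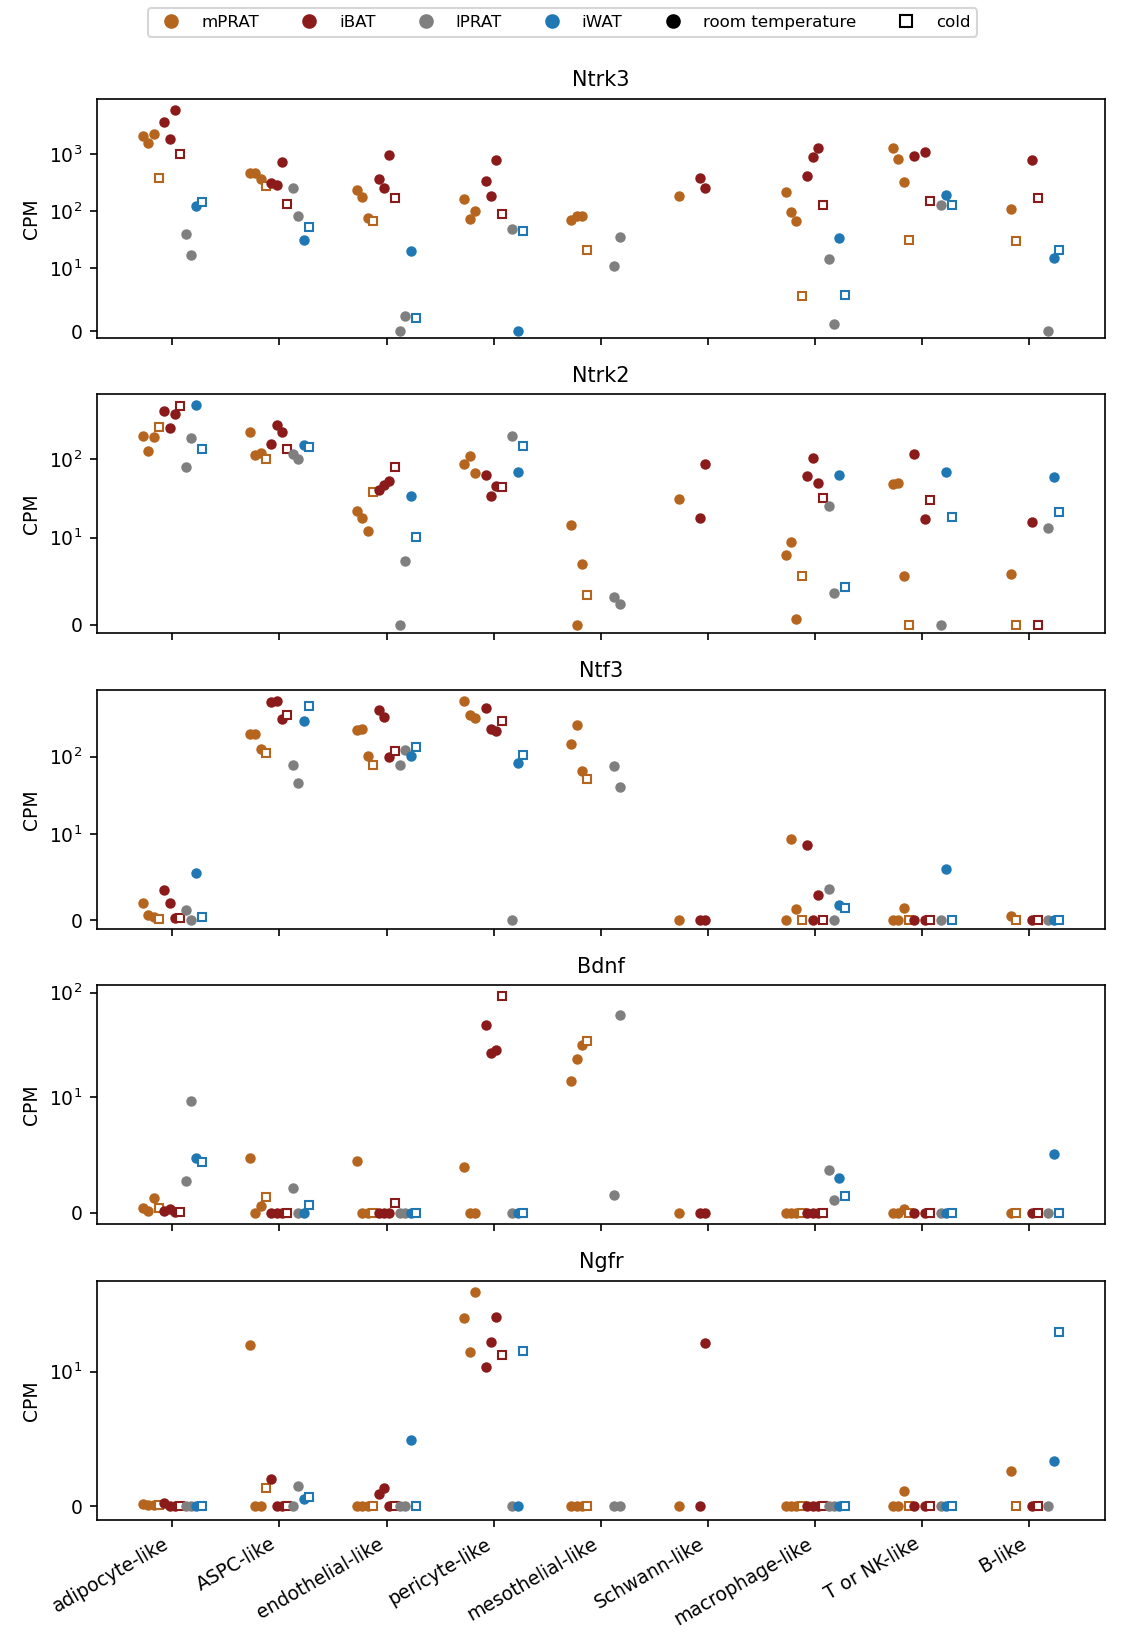
Levels of the 5 members in 9 classes of nuclei, 1 point per library with at least 20 nuclei of the class, in CPM on an axis that is linear near 0 and logarithmic above. Ntf3 lies at 39.95 CPM or more in ASPC-like, endothelial-like and mesothelial-like nuclei and at or below 5.44 in adipocyte-like nuclei, and Bdnf reaches 14.3 CPM or more in iBAT pericyte-like nuclei and in all but 1 library of mesothelial-like nuclei.

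Ntrk2 was found in adipocyte-like nuclei of every depot. Its level was 199, 126 and 190 CPM in mPRAT at 1, 2 and 6 months and 412, 247 and 375 in iBAT. It was 78.8 CPM (68.3 to 90.5) and 185.8 in lPRAT at 2 and 6 months, and 489 in iWAT at 6 months. At 6 months iWAT was highest and iBAT next, and mPRAT and lPRAT did not differ beyond counting error, with a log2 ratio of 0.03 (-0.04 to 0.10). From 1 to 2 months the log2 level of Ntrk2 fell by 0.65 in mPRAT and fell by 0.74 in iBAT, and from 2 to 6 months it rose by 0.59 and 0.60. Within the clusters the ratio from 2 to 6 months ran from 0.22 to 1.13 in mPRAT and from 0.25 to 1.77 in iBAT, and 1 interval in each depot spanned no change. The change from 1 to 6 months was small in both, -0.06 (-0.16 to 0.04) in mPRAT and -0.13 in iBAT. In lPRAT it rose by 1.24 (1.03 to 1.45) from 2 to 6 months over all adipocyte-like nuclei, and by 0.91 (0.44 to 1.36) within cluster 3 and 0.61 (0.24 to 1.00) within cluster 5. The shares of these clusters and the depth of the lPRAT libraries differed as given for Ntrk3.

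In cold, Ntrk2 went in opposite directions in iWAT and in the brown-type depots. In iWAT it fell from 489 to 133.5 CPM (128 to 139), a log2 ratio of -1.87 (-1.94 to -1.81). In mPRAT it went from 190 to 256 CPM, a log2 ratio of 0.43 (0.36 to 0.50), which was 0.39 with a cold level of 249 CPM without the mitochondrial limit, and in iBAT from 375 to 481.5 CPM, 0.36 (0.33 to 0.39). The iWAT fall was also found within clusters, -1.97 in cluster 3 and -1.39 in cluster 5, where the level went from 507.5 to 193 CPM. The higher values of the brown-type depots were not found in every cluster: within cluster 1 the log2 ratio was 0.16 (-0.03 to 0.34) in mPRAT and 0.40 (0.19 to 0.62) in iBAT, and within cluster 3 it was -0.69 (-0.88 to -0.52) in mPRAT and -0.81 (-1.13 to -0.48) in iBAT. Within cluster 4 of mPRAT it was -0.62 (-1.50 to 0.13). Without the limit the mPRAT values were 0.11, -0.73 and -1.57 (-2.42 to -0.84) in clusters 1, 3 and 4, the last interval no longer spanning no change. The share of nuclei with a Ntrk2 UMI after thinning fell from 34.5% to 10.7% in iWAT (77.3% and 33.9% unthinned), against 5.42% and 0.373% of macrophage-like nuclei.

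ASPC-like nuclei also held Ntrk2. Their lowest levels were 99.7 CPM in cold mPRAT (105.5 without the limit) and 101 in 6-month lPRAT, their highest was 272 in iBAT at 2 months, and their quotient to adipocyte marker UMIs was above that of adipocyte-like nuclei in 11 of 12 libraries, with a median of 5.62. In mPRAT their level was 221 CPM at 1 month, 115 at 2 months and 119 at 6 months. In cold it fell by 0.73 on the log2 scale in iBAT (-0.97 to -0.48), whereas in iWAT the log2 ratio was -0.09 (-0.32 to 0.14), so the fall seen in iWAT adipocyte-like nuclei was not seen in its ASPC-like nuclei. Endothelial-like nuclei were below the adipocyte quotient in 9 of 12 libraries. Pericyte-like nuclei were above it in 5 of 10 libraries and below it in 3, all from iBAT. Their Ntrk2 was 86.7, 109 and 66.4 CPM in mPRAT over the ages, on 15 to 22 counts, with quotients of 1.71, 5.07 and 2.24.

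Ngfr was nearly absent from adipocyte-like nuclei, with at most 3 counts in any library. Its clearest source among the named classes was pericyte-like nuclei, contractile cells on small vessels, with 19.7 CPM over all libraries together (14.7 to 25.9, 51 counts). By library their level was 27.6, 14.5 and 45.6 CPM in mPRAT over the ages and 10.8, 17.6 and 28.2 in iBAT, with 13.7 in cold iBAT, all with wide and overlapping intervals. Schwann-like nuclei had 21.4 CPM on 7 counts, and macrophage-like nuclei had no Ngfr UMI in any of the 12 libraries. Nuclei of the unnamed clusters had 16.0 CPM on 15 counts in mPRAT at 6 months, and ASPC-like nuclei had 16.6 on 7 counts in mPRAT at 1 month.

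Ntf3, the ligand of TrkC, was found in stromal and vascular nuclei rather than in adipocytes. In ASPC-like nuclei its level was 197, 194 and 126 CPM in mPRAT over the ages, 508, 524 and 302.5 in iBAT, 78.0 and 45.9 in lPRAT, and 283.5 in iWAT. In pericyte-like nuclei it was 524, 341 and 315 CPM in mPRAT and 418, 224 and 214 in iBAT, and in endothelial-like nuclei 221, 224.5 and 102 in mPRAT and 399, 319 and 98.1 in iBAT. Macrophage-like nuclei had 11 counts in all, at most 9.43 CPM in any library, and adipocyte-like nuclei had at most 5.44. Among ASPC-like nuclei, the log2 ratio at 6 months was -1.26 for mPRAT over iBAT, 1.46 for mPRAT over lPRAT and 0.09 for iBAT over iWAT. After thinning, 3.09% to 33.8% of ASPC-like nuclei had a Ntf3 UMI.

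Ntf3 was lower at 6 months than at 1 month in all 3 classes of both brown-type depots. In iBAT the log2 ratio was -2.02 (-2.43 to -1.64) in endothelial-like nuclei, -0.96 (-1.36 to -0.58) in pericyte-like nuclei and -0.75 (-0.98 to -0.51) in ASPC-like nuclei. In mPRAT the same ratios were -1.12 (-1.57 to -0.67), -0.73 (-1.16 to -0.32) and -0.64 (-1.02 to -0.26). The drop fell in different intervals: in iBAT pericyte-like nuclei between 1 and 2 months, and in ASPC-like nuclei of both depots between 2 and 6 months. In lPRAT the ASPC-like level fell by 0.76 (-1.38 to -0.13) from 2 to 6 months. With only nuclei of at least 1000 genes kept, the mPRAT ASPC-like ratio from 1 to 6 months turned to 0.34 and the mPRAT endothelial-like ratio from 2 to 6 months turned to 1.15, whereas no alternative turned the iBAT ratios from 1 to 6 months.

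**Figure D4:**
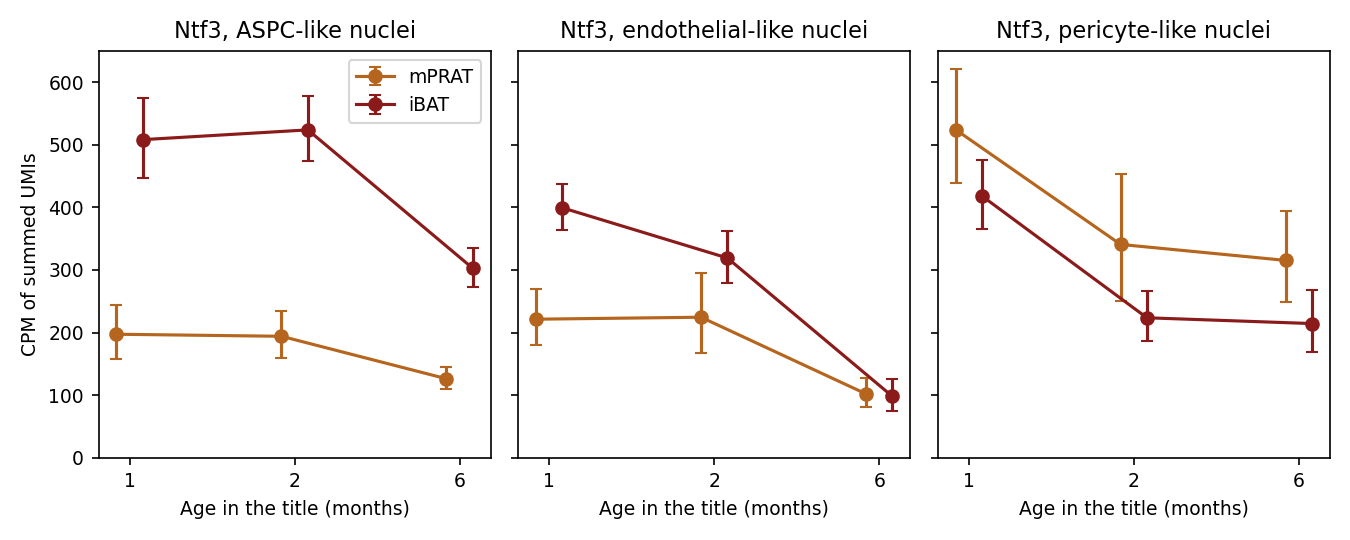
Levels of Ntf3 in ASPC-like, endothelial-like and pericyte-like nuclei of mPRAT and iBAT at room temperature, in CPM with exact 95% counting intervals, against age in months drawn at equal steps. The endothelial-like level of iBAT goes from 399 to 98.1 CPM between 1 and 6 months, and its ASPC-like level from 508 to 302.5.

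In cold, ASPC-like Ntf3 rose in iWAT from 283.5 to 454 CPM, a log2 ratio of 0.68 (0.54 to 0.82). It went from 302.5 to 340 in iBAT, 0.17 (-0.02 to 0.36), and from 126 to 110.5 in mPRAT, -0.19 (-0.58 to 0.18) and -0.28 without the mitochondrial limit, so counting error spanned no change in these. The endothelial-like intervals in cold also spanned no change in all 3 depots, in mPRAT at -0.41 (-1.28 to 0.39) and at -0.76 (-1.61 to 0.01) without the limit. In adipocyte-like nuclei of iWAT, Ntf3 went from 5.44 CPM (4.69 to 6.27, 190 counts) to 0.42 (7 counts), a log2 ratio of -3.69 (-5.03 to -2.62), beside 1.80 CPM on 3 counts in macrophage-like nuclei at room temperature. Over 7 alternatives this ratio ran from -3.99 to -1.69. Of those 190 counts, 187 lay in cluster 5, whose share of iWAT adipocyte-like nuclei went from 80.2% to 32.9% in cold. That cluster had 30324814 UMIs of all genes at room temperature and 6679426 in cold, when it can have held at most the 7 counts of Ntf3.

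Bdnf, the ligand of TrkB, was low in adipocyte-like nuclei and highest in some mesothelial-like, pericyte-like and skeletal muscle-like nuclei, the first 2 of which also held Ntf3. In adipocyte-like nuclei it was at most 1.27 CPM in mPRAT and 0.350 in iBAT, but 2.74 (7 counts) and 9.66 (146 counts) in lPRAT at 2 and 6 months, and iWAT had 4.70 (164 counts) at 22 °C and 4.385 (73 counts) in cold. Over all adipocyte-like nuclei, white depots were thus above brown-type depots, the reverse of Ntrk3, but the mix of clusters differed. Cluster 5 held 404 of the 443 adipocyte-like counts. At 6 months and 22 °C it made up 91.0% of these nuclei in lPRAT, 80.2% in iWAT, 14.0% in mPRAT and 0.76% in iBAT. Cluster 5 of mPRAT then held 31 counts in 5536670 UMIs of all genes, beside a level of 5.38 CPM in that of iWAT. In lPRAT it held 144 counts in 14663326 UMIs. Within cluster 5, mPRAT was thus below lPRAT but not below iWAT. Macrophage-like Bdnf was 3.00 CPM (0.97 to 6.99) in iWAT at 22 °C, which overlaps the adipocyte-like level. In lPRAT it was 3.65 CPM on 1 count at 2 months and 1.12 on 4 counts at 6 months. In cold iWAT the log2 ratio of Bdnf was -0.10 (-0.52 to 0.31) over all adipocyte-like nuclei, but 0.81 (0.37 to 1.24) within cluster 5, where the level went from 5.38 to 9.43 CPM, and in mPRAT the log2 ratio was -1.74 (-3.70 to -0.24), -1.85 without the mitochondrial limit. All 31 Bdnf counts of mPRAT adipocyte-like nuclei at 6 months lay in cluster 5, which went from 14.0% of these nuclei at room temperature to 1.11% in cold, where its 24 nuclei had no Bdnf UMI and were too few for a ratio. From 2 to 6 months lPRAT Bdnf rose by 1.82 on the log2 scale (0.74 to 3.16), with 0.93 to 2.06 over 7 alternatives. Cluster 5 went from 8.37% to 91.0% of lPRAT adipocyte-like nuclei between these ages, and within it the ratio was 1.26 (-0.62 to 4.32, from 2 counts to 144), an interval that spans no change. The 2-month library was also the shallow one described for Ntrk3.

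Over all libraries together, mesothelial-like nuclei, which line the body cavity, had the highest Bdnf of the classes with over 1000 nuclei. They had 45.6 CPM on 210 counts, 183 of them from lPRAT at 6 months, against 30.9 CPM in pericyte-like nuclei. By library, their highest level, 60.4 CPM in lPRAT at 6 months, was below the 92.5 CPM of pericyte-like nuclei in cold iBAT. From 2 to 6 months the log2 ratio of the mesothelial-like level in lPRAT was 5.28, with a wide interval of 2.78 to 10.59. The level went from 1.56 CPM (1 count in 366 nuclei) to 60.4 (52.0 to 69.8, 183 counts in 1173 nuclei). The 2-month library was the shallow one described for Ntrk3. By marker gate over all libraries, 981 mesothelial-like nuclei were gated as mesothelial, 342 as ASPC and 435 were ungated. The parts of depth and of class make-up in this ratio were not tested. In mPRAT it was 14.3, 23.3 and 31.1 CPM over the ages and 34.4 in cold (32.0 without the limit), on 2 to 10 counts. In pericyte-like nuclei Bdnf was found in iBAT at 48.7, 26.4 and 28.2 CPM over the ages and at 92.5 (27 counts) in cold, where the log2 ratio was 1.71 (0.62 to 2.92), and at most 1 count was found in a library of any other depot. Pericyte-like nuclei of mPRAT at 6 months, 101 nuclei with 241072 UMIs, had no Bdnf UMI. A count of 0 is taken to allow up to 3 counts, here 12.4 CPM, and the upper end of the exact interval is 15.3 CPM. Kidney tubule-like nuclei of mPRAT had 39.0 CPM on 19 counts at 1 month and 24.9 on 34 counts at 2 months. Skeletal muscle-like nuclei of iBAT had 9.27 CPM (4.93 to 15.8, 13 counts in 429 nuclei) at 2 months and 106 (53.1 to 190, 11 counts in 36 nuclei) at 6 months, and no Bdnf UMI in the 41 nuclei at 1 month.

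Ntf5, a further ligand of TrkB, was at most at 0.195 CPM in adipocyte-like nuclei of any library.

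The members were next read against all genes in adipocyte-like nuclei. A gene entered with 20 counts or more in the 2 libraries together, and 2-fold differences were taken on the log2(CPM + 1) scale. Ntrk3 was the 1 of 3 tested members past it in cold mPRAT, where 7.28% of all genes were at least 2-fold lower (7.56% without the mitochondrial limit, with the same count of members), and the 1 of 3 in cold iBAT, where 8.75% were. The fall in cold mPRAT, and the higher Ntrk3 of brown-type over white depots below, are values by which the gene was chosen. Setting them beside the shares of all genes is a description and supports nothing. In cold iWAT 2 of 4 tested members, Ntrk2 and Ntf3, were lower, against 5.6% of all genes, and none was higher, against 2.49%. In room-temperature iWAT the Ntf3 interval of adipocyte-like nuclei, 4.69 to 6.27 CPM, overlapped that of macrophage-like nuclei, 0.37 to 5.26. With age, Ntrk3 was higher in iBAT from 2 to 6 months (4.74% of all genes) and Ntf3 lower (3.38%, and 5.95% from 1 to 6 months). These Ntf3 levels were low in adipocyte-like nuclei, 3.50 CPM on 43 counts, 2.04 on 35 and 0.300 on 12 at 1, 2 and 6 months, and were not above the macrophage-like ones beyond counting error (8.77 CPM on 1 count at 1 month and 2.92 on 1 count at 6 months), so they are not read as a change in adipocytes. Bdnf was higher in mPRAT from 2 to 6 months (5.62%), on 1 and 31 counts, while cluster 5 went from 2.53% to 14.0% of the nuclei. Over all adipocyte-like nuclei of lPRAT, whose cluster mix and depth differed, Ntrk2 and Bdnf were higher at 6 than at 2 months (11.8%) and Ntrk3 lower (9.86%). TMM scaling moved the genes higher and lower there from 1569 and 1314 to 2130 and 1049. Between depots, Ntrk3 was past 2-fold higher in mPRAT than in lPRAT at 2 months (11.1%) and 6 months (6.96%), and Bdnf lower at 6 months (6.92%). At 6 months Ntrk3 was also higher in mPRAT than in iWAT (7.38%), where Bdnf, Ntf3 and Ntrk2 were lower (4.7%), and in iBAT than in iWAT (12.1%), where Bdnf and Ntf3 were lower (11.5%). Of mPRAT over iBAT, Ntrk2 was lower at 1 month (3.63%), and at 6 months Bdnf was higher (7.79%) and Ntrk3 lower (3.99%). Comparisons of a depot share its room-temperature library, so they are not independent of each other.

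Around the members, 77 genes of neurotrophin signalling and of other neurotrophic and axon guidance factors were followed in the same nuclei. The cluster mix of these nuclei changed in cold, as given for Ntrk3, and its part in the counts was not tested. In cold mPRAT 7 of 56 tested were at least 2-fold higher and 5 lower, with a list median of -0.10 against -0.04 over all genes. Without the mitochondrial limit 8 of 57 were higher and 5 lower there. In cold iBAT 4 of 58 were higher and 8 lower (medians -0.08 and -0.09), and in cold iWAT 7 of 57 were higher and 3 lower (-0.01 and -0.18). The shares of all genes higher and lower were 7.9% and 7.28% in mPRAT, 5.62% and 8.75% in iBAT and 2.49% and 5.6% in iWAT. TMM scaling moved the median of all genes by over 0.1 in iBAT and iWAT, to 0.04 and -0.05, and the genes higher and lower from 921 and 1433 to 1310 and 1176 in iBAT and from 377 and 849 to 521 and 664 in iWAT. Of the 17 tested Trk adaptor and kinase-pathway genes, 0 passed 2-fold in mPRAT, 1 in iBAT (lower) and 1 in iWAT (higher). Of the sortilin family, 1 of 3, 1 of 4 and 2 of 5 tested were higher in mPRAT, iBAT and iWAT, and of the p75 partners 1, 2 and 0 of 6 tested were lower, Lingo1 in both brown-type depots and Maged1 in iBAT. Of the genes that process proneurotrophins, Furin was higher in mPRAT, and of the synaptic partners Ptprf was higher in mPRAT and Ptprs lower in iBAT. Of the other neurotrophic and guidance factors and their receptors, 4 of 20 tested were higher and 2 lower in mPRAT, 3 of 19 higher and 3 lower in iBAT, and 4 of 17 higher and 0 lower in iWAT.

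By gene, Sorl1, a sorting receptor of the sortilin family, was higher in cold in all 3 depots. It went from 55.8 to 198 CPM in mPRAT (log2 1.81), from 66.9 to 298 in iBAT (2.14) and from 12.5 to 54.4 in iWAT (2.04). Slit3, a secreted axon guidance cue, was lower in the brown-type depots, from 1603 to 302 CPM in mPRAT (-2.40) and from 124 to 49.9 in iBAT (-1.30). In mPRAT, Slit2, of the same family, went from 30.7 to 126 CPM (2.01), and Clstn3, a calsyntenin, from 101 to 206 (1.02). Without the mitochondrial limit the mPRAT ratios of Sorl1, Slit3, Slit2 and Clstn3 were 1.78, -2.45, 1.97 and 1.02. In iBAT, Erbb4, a neuregulin receptor, went from 2421 to 844 CPM (-1.52), Irs1, an insulin receptor substrate that Trk receptors also use, from 473 to 229 (-1.04), and Cntfr, the receptor of ciliary neurotrophic factor, from 19.2 to 59.7 (1.59). In iWAT, Nrg4, an adipocyte-derived neuregulin, went from 1032 to 2633 (1.35), Sema3a, a repellent of axons, from 23.5 to 65.3 (1.44), and Pik3r1, a PI3-kinase subunit, from 877 to 1875 (1.10). Sort1, the sortilin that pairs with p75, differed by -0.56 (-0.60 without the limit), -0.71 and 0.00 on the log2 scale in mPRAT, iBAT and iWAT. All these ratios are over all adipocyte-like nuclei, whose cluster mix changed in cold. Cluster 1 went from 3.57% to 59.3% of them in mPRAT and from 1.43% to 97.7% in iBAT. In iWAT, cluster 3 went from 19.6% to 60.8%. The part of that mix in the ratios was not tested.

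**Figure D5:**
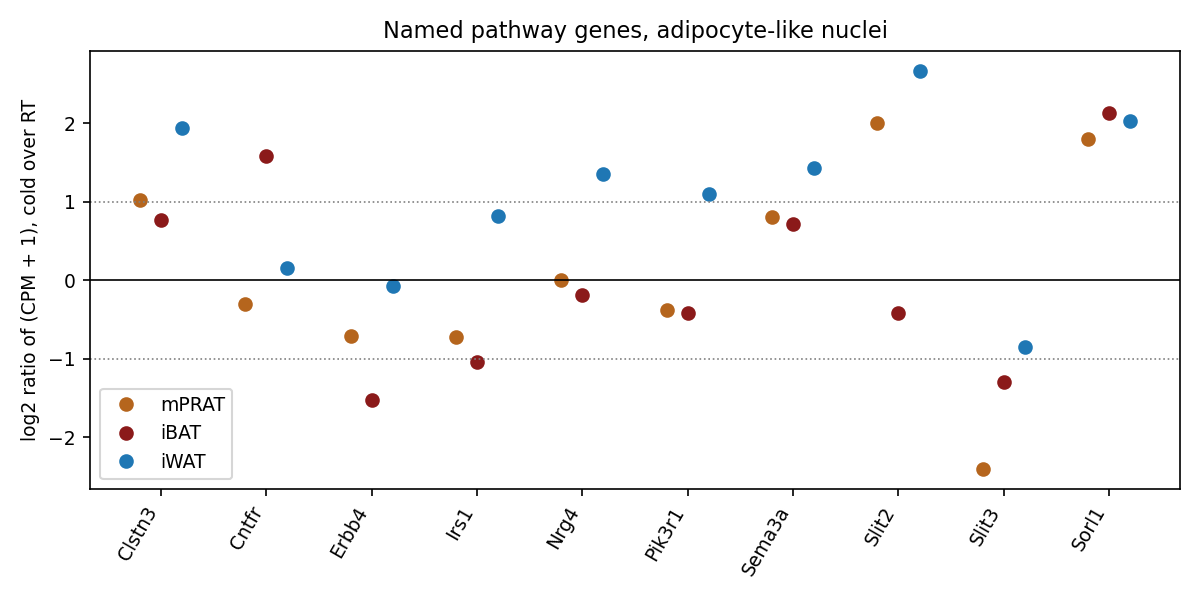
Log2 ratios of cold over room temperature in adipocyte-like nuclei, with 1 CPM added, for the 10 named pathway genes in mPRAT, iBAT and iWAT (colours), with dotted lines at 2-fold. Sorl1 is past 2-fold higher in all 3 depots, and Slit3 is past 2-fold lower in mPRAT and iBAT.

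Genes whose adipocyte-like levels were most like those of Ntrk3 were ranked by Pearson's correlation of log2(CPM + 1) over the 12 libraries, among 5331 genes. Among the first 10 were Cmtm4 (0.964), Tspan18 (0.961), Gucd1 (0.957), Pnkd (0.955), Gm35853 and Nrp2 (both 0.95), Rnf182 (0.944), Fam129a (0.944) and Ebf2 (0.942). The list depended on the measure: by Spearman's correlation 3 of the 10 were still among the first 10, with Fam129a 3rd, Pnkd 5th, Cmtm4 17th, Ebf2 31st and Gm35853 83rd. Ebf2 is a transcription factor known for brown and beige adipocytes, and Nrp2 is a semaphorin co-receptor. Ucp1 reached 0.847 with Ntrk3 by Pearson and 0.552 by Spearman correlation. For Ntrk2 the first 5 were Rab12 (0.915), Stat6 (0.870), Synj2 (0.869), Ptprg (0.858) and 5430405H02Rik (0.857), of which 4 were among the first 5 by Spearman's correlation, and its correlation with Ntrk3 was 0.404. The 12 points share libraries, depots and depths, so these values are descriptions.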

How the data were processed

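Single-nucleus 10x 3′ libraries were analysed from 12 groups with 1 library each. The authors deposited UMI counts per gene and barcode, whole numbers without normalization. Cell Ranger 7.0.0 and the build mm10 are named per the submitters' processing notes, and whether intronic reads were counted is not given in the sources used here. Nuclei were kept with at least 500 UMIs, 300 genes and at most 10% mitochondrial UMIs. Of 118550 barcodes past the UMI and gene limits, 11652 were over the mitochondrial limit and 11338 were removed as doublets by scrublet rank at 0.8% per 1000 nuclei. Total counts per library ran from 5461133 to 87035783. Nuclei of all libraries were clustered together with scanpy 1.11.5 (2000 variable genes without the members and pathway genes, 30 components, 15 neighbours, Leiden resolution 1) and named from marker lists. A name needed at least 3 found markers, and 2 clusters stayed unnamed. The macrophage-like cluster also carried 4 dendritic markers.

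UMIs were summed per class and library and scaled to CPM. Intervals of a level are exact Poisson, of a ratio exact conditional binomial and of a share exact Clopper-Pearson. Log2 ratios of members have no CPM added, and those over all genes have 1 CPM added. Over 17 comparisons, a call is a 2-fold difference among genes with at least 20 counts. Shares and the Ucp1 split used nuclei thinned to 1000 UMIs, which left out 8 to 2934 adipocyte-like nuclei per library. The computations were checked on simulated data.

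All 5 members are named. Pathway genes are named at 50 CPM or more and a 2-fold ratio in a cold comparison, at most 6 in each, and Ntf5 always. Sort1, Lingo1, Maged1, Furin, Ptprf and Ptprs fall outside this rule and were chosen after their values were seen. Likeness names the first 10 genes for Ntrk3 and the first 5 for Ntrk2. Some genes that these rules reach are not reported here. The members and lists were chosen with earlier results of these data known. TMM factors came from edgeR 4.0.16. Promoters came from RefSeq and gene positions from GENCODE on GRCm38, the build that mm10 names.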

Additional observations from a re-analysis of the deposited data

Results flagged for a closer look

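The cold response of Ntrk2 in adipocyte-like nuclei had opposite signs between depots. The log2 ratio was 0.43 in mPRAT and -1.87 in iWAT, a difference of 2.30, and 0.36 in iBAT against -1.87 in iWAT, a difference of 2.23. Within cluster 3 the sign was the same in all 3 depots, with -0.69 in mPRAT, -0.81 in iBAT and -1.97 in iWAT. For Ntrk3 the cold response was -2.55 in mPRAT against 0.26 in iWAT, a difference of -2.81, and -2.60 in iBAT against 0.26 in iWAT, a difference of -2.86. Within clusters 3 and 5 of iWAT the Ntrk3 ratio was -0.35 and -0.37, so the opposite sign was not found there, and cluster 3 went from 19.6% to 60.8% of iWAT adipocyte-like nuclei. The Ntrk3 values in mPRAT are those by which the gene was chosen.

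With age, from 2 to 6 months, Ntrk3 had opposite signs in the brown-type depots and lPRAT. The log2 ratio was 0.53 in mPRAT against -1.21 in lPRAT, a difference of 1.74, and 1.69 in iBAT against -1.21 in lPRAT, a difference of 2.90. Cluster 3 went from 90.4% to 8.59% of lPRAT adipocyte-like nuclei and cluster 5 from 8.37% to 91.0%. The median UMIs of lPRAT adipocyte-like nuclei were 894 at 2 months and 6538 at 6 months. The lPRAT ratio was 1.15 within cluster 3 and -1.28 within cluster 5, so the opposite sign was found only in cluster 5 of these. With 1 library in each group, none of these differences was tested, and the pairs in each set share the iWAT or lPRAT libraries.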

How the results depend on the processing

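Each log2 ratio of the members was recomputed under up to 8 alternatives, which gave 1452 values. Of these, 1185 stayed within the counting interval of the reported value, 252 lay outside it with the same sign and 15 lay outside it with the other sign. The limits are that every group has 1 library, so no replicate could be left out, and that counts under about 20 leave wide intervals. No paired analysis was possible because each group has 1 library, so that no 2 groups share more than 1 replicate number, and no result comes from a test.

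In cold mPRAT, Ntrk3 (-2.55) became -2.60 without the mitochondrial limit, -2.67 as the mean of nuclei and -2.65 thinned. In cold iBAT, Ntrk3 (-2.60) became -2.58 with doublets kept, -2.41 with TMM scaling, -2.45 with the macrophage-like level subtracted and -2.58 thinned. In cold iWAT, Ntrk3 (0.26) became 0.42 with TMM scaling, 0.17 as the mean of nuclei and 0.66 with the macrophage-like level subtracted. Ntrk2 in cold iBAT (0.36) became 0.55 with TMM scaling and 0.47 with that subtraction, and in cold iWAT (-1.87) -1.72 with either. The adipocyte clusters were compared as an alternative chosen after seeing the data, and so were the cold mPRAT shares, Ucp1 split, clusters and pathway genes without the mitochondrial limit. Within cluster 1, Ntrk3 in cold was -2.38 in mPRAT and -2.42 in iBAT, and Ntrk2 0.16 and 0.40. Within cluster 3, Ntrk3 was -4.26 in mPRAT, -2.71 in iBAT and -0.35 in iWAT, and Ntrk2 -0.69, -0.81 and -1.97. Within cluster 4 of mPRAT, Ntrk3 was -3.06 and Ntrk2 -0.62. Within cluster 5 of iWAT, Ntrk3 was -0.37 and Ntrk2 -1.39. With age, the sign turned within cluster 3 of lPRAT for Ntrk3 (1.15), within cluster 0 of mPRAT from 1 to 2 months for Ntrk3 (0.14) and Ntrk2 (0.024), and within clusters 0 and 3 of iBAT from 1 to 6 months for Ntrk2 (0.087 and 0.098). The cause of these shifts was not tested.

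The other sign changes were as follows. Subtracting the macrophage-like level gave 0.58 for adipocyte-like Ntrk3 in mPRAT over iBAT at 2 months. With doublets kept, Ntrk3 in mPRAT at 6 months gave 0.16 over 2 months and 0.14 over 1 month in ASPC-like nuclei, and 0.45 and 0.23 in endothelial-like nuclei. It gave 0.69 for pericyte-like nuclei of mPRAT from 1 to 2 months, 0.090 for these over iBAT at 2 months, and -0.0098 for ASPC-like mPRAT over iBAT at 1 month, which was -0.059 as the mean of nuclei. Marker-gated nuclei gave 0.036 for ASPC-like Ntrk3 in cold mPRAT and 0.26 for pericyte-like Ntrk2 in iBAT from 1 to 2 months. With at least 1000 genes per nucleus, Ntf3 in mPRAT gave 0.34 from 1 to 6 months in ASPC-like nuclei and 1.15 from 2 to 6 months in endothelial-like nuclei, and endothelial-like Ntrk3 gave 0.41 for mPRAT over iBAT at 2 months. Thinning gave -0.28 for mesothelial-like Ntf3 in mPRAT from 1 to 2 months.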

Other observations

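Smooth muscle had no cluster of its own. The 180 nuclei gated by smooth muscle markers, 156 of them in unnamed clusters, had 585.5 CPM of Ntrk3, 205 of Ntrk2 and 164 of Ntf3 over all libraries together. No quotient to adipocyte marker UMIs is given for them, so the part of free RNA in these levels is not known. B-like nuclei, most of them from mPRAT at 6 months, had 22 Ngfr counts, 2.84 CPM.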
